A study of Rattus norvegicus and Mus musculus with 22 samples.

Results

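Transcripts of 7 adenylyl cyclases (Adcy1, Adcy3, Adcy5, Adcy6, Adcy7, Adcy8 and Adcy9) and of Gnas, the gene of the stimulatory G protein alpha subunit, were followed in mouse and rat cells treated with forskolin. The 8 genes were found by their symbols among the 29047 gene symbols of the 6 deposited tables. Gnas encodes the protein that couples hormone receptors to adenylyl cyclase: a ligand-bound receptor loads it with GTP, and the loaded subunit switches on the membrane-bound cyclases, which make cAMP from ATP. cAMP then activates protein kinase A, which phosphorylates the transcription factor CREB. Forskolin is a plant diterpene that binds the catalytic core of the membrane-bound cyclases and raises cAMP without a receptor, so the cyclases are the drug's direct targets and the Gnas product is their physiological activator. In beta cells this pathway carries the incretin signal to insulin secretion, and in hepatocytes it carries the glucagon signal to glucose production.

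RNA-seq gave 22 libraries in 16 groups. Islets cultured from wild-type black6 mice, hepatocytes cultured from wild-type black6 mice, and INS-1, a rat insulinoma line, each had 2 control libraries and 2 libraries given 10 µM forskolin for 2 h. The other 10 groups had 1 library each. These were control and forskolin islets of CRTC2KO mice, which lack the CREB coactivator CRTC2 in the whole body; INS-1 cells left as control, given forskolin, given 1 µM JQ1 for 4 h with forskolin, or given 10 µM A485 for 4 h with forskolin; and AR42J cells, with GFP or with the transcription factor NeuroD1, each with and without forskolin. JQ1 blocks the acetyl-lysine pockets of BET proteins, and A485 (A-485) blocks the acetyltransferases p300 and CBP. AR42J is a rat pancreatic line with exocrine features; the labels do not say how GFP or NeuroD1 was delivered, whether animals were pooled, or whether replicates came from separate animals or cultures. The p-values below therefore speak of library-to-library spread alone, possibly technical.

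Library totals, where the headers gave them or low values allowed an estimate, ran from 0.605 to 6.20 M reads, and the lowest was the forskolin library of the CRTC2KO islets. Beta cell markers identified the islets and INS-1 cells (12 of 12 listed markers, and 9 of the 10 with a row, at a per-length level of at least 1 in every replicated library). In hepatocytes 14 of 14 listed hepatocyte markers with a row reached that level and 10 of 12 beta cell markers were at 0, and in AR42J cells 10 of 11 acinar markers with a row reached it. Crtc2 stood at 18.7 FPKM (fragments per transcript length, scaled to library size) in wild-type and 7.77 FPKM in CRTC2KO control islets, and at 13.9 and 9.58 FPKM in the forskolin libraries, so the row was lower in the knockout, less so with forskolin, and not at 0. Neurod1 stood at 3.44 FPKM in GFP and 3323 FPKM in NeuroD1 AR42J cells.

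Adcy6 was the most abundant listed cyclase transcript per length in every library, and the cyclases next to it differed between cell sources. Levels were compared between genes per transcript length. In the forskolin library of the CRTC2KO islets the order rests on that division. Adcy9 had more estimated reads there (48.2) than Adcy6 (42.5). The 3 replicated tables hold regularised log2 values, which were turned back to a linear scale, divided by transcript length and scaled to the same total, a scale on which low genes stand too high because regularisation pulls them towards the middle. In control islets 1 and 2 Adcy6 made up 63.6% and 58.4% of the summed level of the 7 cyclases, and Adcy9 27.3% and 32.5%. In the hepatocyte libraries labelled control Adcy6 made up 67.0% and 63.8%, and Adcy9 26.7% and 30.2%. Both mouse tissues thus carried Adcy6 and Adcy9 as their main cyclase transcripts, with the remaining members below 5% each. Adcy6 encodes a cyclase that is inhibited by calcium and by Gi, and Adcy9 encodes the membrane cyclase that responds least to forskolin.

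Adcy1, which encodes a calcium- and calmodulin-stimulated cyclase, had a larger share in the rat lines than in the mouse cells. Its share was 0.42% and 0.41% in control islets and 1.95% and 1.83% in the hepatocyte libraries labelled control. In the INS-1 control of the inhibitor experiment Adcy1 made up 15.6% of the sum, Adcy6 66.8% and Adcy9 13.5%. In AR42J control cells with GFP Adcy1 made up 17.8%, Adcy6 65.1%, Adcy9 9.21% and Adcy3, another calcium-responsive cyclase known from olfactory signalling, 7.83%. The Adcy1 row spans 12236 exon bases in the mouse tables and 3198 in the rat tables. Without division by length its share was 0.797% and 0.769% in control islets, 3.63% and 3.38% in the hepatocyte libraries labelled control and 11.7% and 9.54% in control INS-1 cells, still larger in the rat line. Species and cell line cannot be told apart here. The replicated INS-1 table has no row for Adcy9, so its shares are over the other cyclases; there Adcy6 took 76.9% and 79.6% in the controls and Adcy1 19.5% and 16.1%.

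**Figure D1:**
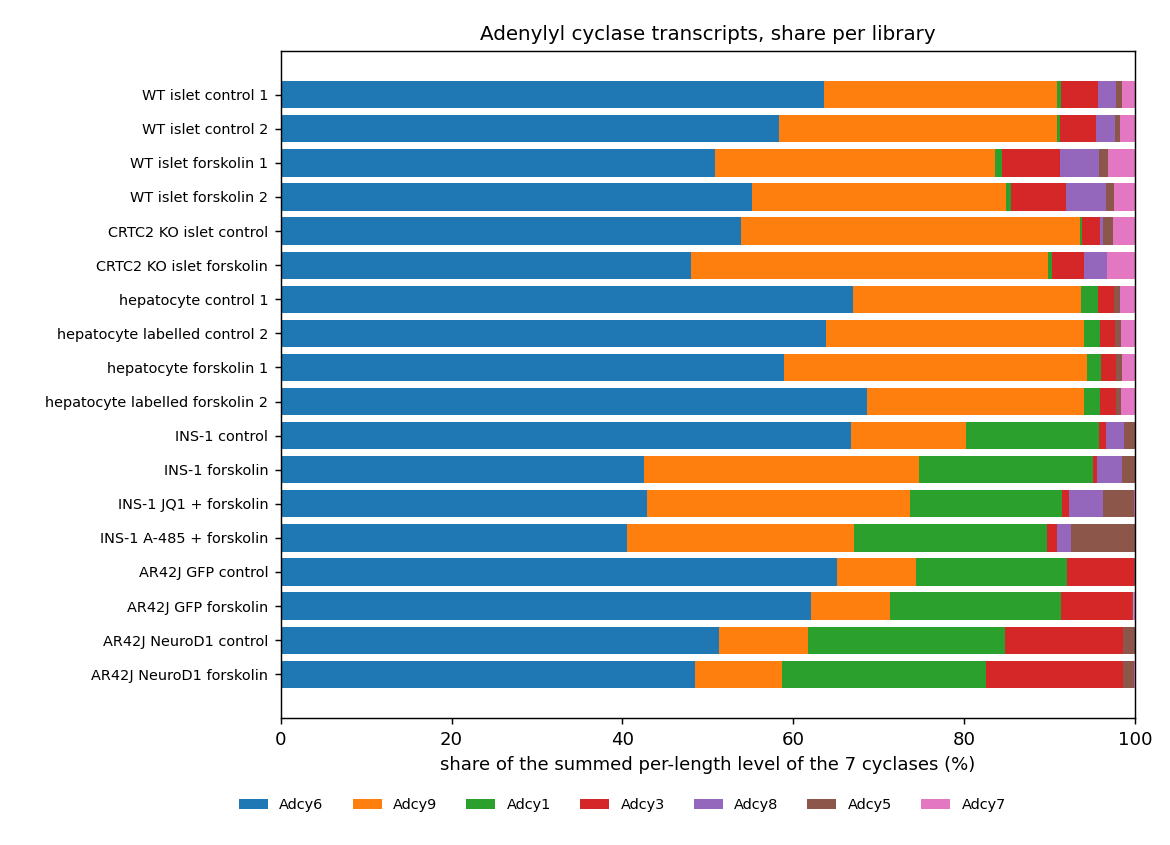
Share of each cyclase in the summed per-length level of the 7 cyclases, in percent, with 1 horizontal bar per library; mouse islets and hepatocytes are drawn from the replicated log2 tables, and CRTC2KO islets, INS-1 and AR42J cells from the FPKM tables. Adcy6 is the longest segment in every bar, Adcy9 comes next in islets and hepatocytes, and Adcy1 takes 15.6% to 23.9% in the rat lines.

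Some minor members were listed at 0 in whole cell sources. Adcy8, a calcium-stimulated cyclase expressed in beta cells and brain, was listed at 0 in all 4 hepatocyte libraries and all 4 AR42J libraries, and at 1.82 FPKM in the INS-1 control of the inhibitor experiment. Adcy7, a cyclase that G protein beta-gamma subunits stimulate, was listed at 0 in the 4 replicated INS-1 libraries, and at 0.824 FPKM in wild-type and 0.811 FPKM in CRTC2KO control islets. Immune cell markers summed to between 135 and 165 (per length) in the replicated islet libraries and to at most 0.697 in the replicated INS-1 libraries; the part of other cell types in the Adcy7 level was not tested. Adcy5, a close relative of Adcy6, reached at most 2.43 FPKM in any library of the FPKM tables.

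Gnas stood above all the cyclases together in every library. In the FPKM tables Gnas stood at 908 FPKM in wild-type control islets, 2335 FPKM in control INS-1 cells and 856 FPKM in AR42J control cells with GFP. Divided by the summed cyclase level of the same library, Gnas was 21.4 times as high in those islets, 27.1 times in INS-1 cells and 9.65 times in AR42J cells. In the replicated tables the same ratio was 10.6 and 9.37 in control islets, 16.2 and 16.5 in the hepatocyte libraries labelled control, and 29.9 and 34.0 in control INS-1 cells. These tables were normalised separately, and the Gnas row spans 3886 exon bases in the mouse tables and 1297 in the rat tables. The replicated INS-1 table has no Adcy9 row, so its sum is over the other cyclases. Its ratio thus stands higher than it would with Adcy9 included. Without division by length the ratio was 6.40 and 5.57 in control islets, 9.58 and 9.65 in the hepatocyte libraries labelled control and 7.29 and 8.17 in control INS-1 cells, so the order of the sources depends on the length. Gnas is an imprinted locus with several start sites, and 1 row stands for it: transcript NM_001310083 on mouse chromosome 2 (mm10, 174327768 to 174346742, plus strand, 3886 exon bases in 13 exons), where the annotation holds 24 transcripts of the gene.

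The forskolin comparison asks whether the genes of cAMP production themselves respond when cAMP is raised. In wild-type islets Adcy6 and Adcy9 lay lower and Adcy8 and Gnas higher in both forskolin libraries than in both controls. However, none of the 8 members passed limma with Benjamini-Hochberg adjustment over 13656 genes, of which 1.96% were called. An unadjusted p under 0.05 in limma was reached by 3 of the 8 members and by 1985 of the 13656 genes. The authors' deposited table also called none of the 8, where it called 2.23% of its genes. Fewer cells of a type and less RNA per cell cannot be told apart in these bulk libraries.

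Adcy6 (mouse chromosome 15, mm10, 98589986 to 98607633, minus strand) had deposited log2 values of 8.32 and 8.15 in islet controls 1 and 2, and 7.15 and 7.64 in forskolin 1 and 2. Both forskolin libraries were below both controls, and forskolin 1 was the lowest. The log2 difference was -0.84 (SE 0.25, n = 2 and 2), with an adjusted p of 0.174 in limma. Without forskolin 2 the difference was -1.09 with an adjusted p of 0.00346, in a fit that called 20.8% of all genes. Such a fit leaves 1 forskolin library, assumed to vary like the controls. The authors' deposited table gave Adcy6 a log2 fold change of -1.11 with an adjusted p of 0.0744.

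Adcy9 (chromosome 16, 4284886 to 4420498, minus strand) had log2 values of 7.48 and 7.69 in islet controls 1 and 2, and 6.90 and 7.13 in forskolin 1 and 2. Both forskolin libraries were below both controls, so the groups did not overlap. The log2 difference was -0.57 (SE 0.22, n = 2 and 2; adjusted p = 0.292 in limma), and -0.68 without forskolin 2 (adjusted p = 0.0281 in limma, in the same fit that called 20.8% of all genes). The authors' deposited table gave Adcy9 -0.81 with an adjusted p of 0.328.

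Adcy8 (chromosome 15, 64699035 to 64922296, minus strand) was low in islets, with log2 values of 3.12 and 3.11 in controls and 3.38 and 3.79 in forskolin libraries. Both forskolin libraries were above both controls, forskolin 2 the most. The log2 difference was 0.47 (SE 0.16, n = 2 and 2; adjusted p = 0.226 in limma) and 0.67 without forskolin 1 (adjusted p = 0.0135 in limma, with 1 forskolin library left, in a fit that called 6.9% of all genes). The authors' deposited table, whose fold change is less shrunk, gave Adcy8 1.44 with an adjusted p of 0.333.

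Gnas had log2 values of 11.75 and 11.53 in islet controls and 11.90 and 12.09 in forskolin libraries, without overlap. Its log2 difference was 0.35 (SE 0.25, n = 2 and 2; adjusted p = 0.564 in limma), and 0.050 after quantile normalization. Adcy7 lay between 2.94 and 3.04 in controls and between 3.12 and 3.15 with forskolin, and Adcy1, Adcy3 and Adcy5 overlapped between the groups, with log2 differences of 0.024, -0.0062 and -0.021. These 4 lie on mouse chromosomes 8, 11, 12 and 16 in that order. The groups thus did not overlap for 5 of the 8 members and for 46.2% of all tested genes. The 2 forskolin libraries also differed in markers of other sources: hepatocyte marker genes summed to 4144 (per length) in forskolin 1 against 1762 to 2049 in the other 3, and acinar markers to 3893 in forskolin 2 and 2591 in control 2 against 1172 and 1195 in the other 2. Their part in the members' values was not tested.

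**Figure D2:**
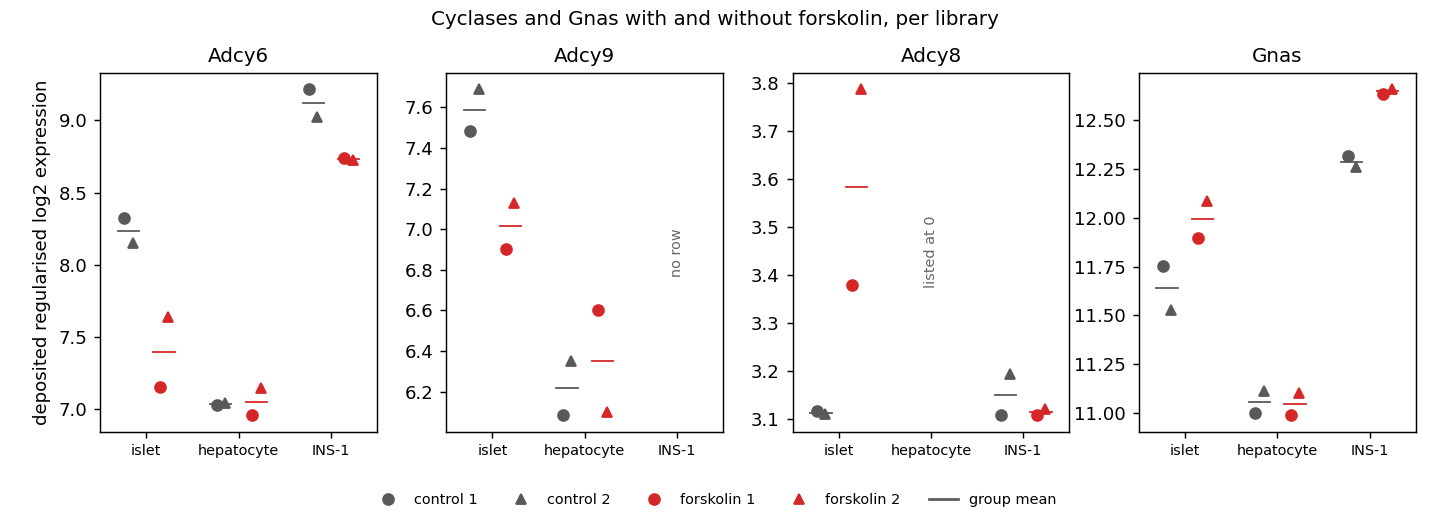
Deposited regularised log2 expression of Adcy6, Adcy9, Adcy8 and Gnas in islets, hepatocytes and INS-1 cells; each point is 1 library (circles replicate 1, triangles replicate 2, grey control, red forskolin, hepatocytes as labelled) and the short lines are group means. In islets Adcy6 and Adcy9 are lower and Adcy8 and Gnas higher in both forskolin libraries; each panel has its own axis, which does not start at 0.

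In INS-1 cells Adcy6 was again lower and Gnas again higher in both forskolin libraries, and again neither passed the test. Of the 6 tested members 0 were called in limma, where 4.31% of 10344 genes were. An unadjusted p under 0.05 in limma was reached by 2 of the 6 members and by 1787 of the 10344 genes. Adcy6 had log2 values of 9.22 and 9.03 in controls and 8.74 and 8.72 with forskolin. The groups did not overlap, and the difference was -0.39 (SE 0.14, n = 2 and 2; adjusted p = 0.172 in limma). The authors' deposited table gave Adcy6 -0.57 with an adjusted p of 0.232. With a replicate block limma called Adcy6, in a fit where 774 genes rose and 691 fell. Replicate numbers are not known to pair libraries.

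Gnas had log2 values of 12.32 and 12.26 in INS-1 controls and 12.64 and 12.66 with forskolin, again without overlap. The difference was 0.36 (SE 0.15, n = 2 and 2; adjusted p = 0.252 in limma), and the authors' deposited table gave Gnas 0.49 with an adjusted p of 0.255. Among all tested INS-1 genes 48.4% had groups without overlap. Adcy1 had 6.36 and 5.84 in controls and 6.25 and 6.52 with forskolin, and Adcy3, Adcy5 and Adcy8 overlapped too. Adcy7 was listed at 0.

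The separate INS-1 experiment of 1 library a condition held a row for Adcy9. There Adcy6 stood at 57.5 FPKM in control and 30.3 FPKM with forskolin, a log2 ratio of -0.90 (pseudocount 1 FPKM), and Gnas at 2335 and 3002 FPKM, a log2 ratio of 0.36. Adcy9 stood at 11.6 FPKM in control and 22.9 FPKM with forskolin, a log2 ratio of 0.92, so it was higher in the treated INS-1 library and lower in both treated islet libraries. None of the 6 members with at least 1 FPKM passed a 2-fold ratio (log2 ratio of 1; 9.67% of genes did), and there was no replicate check. With Adcy6 lower and Adcy9 higher, the share of Adcy6 was 66.8% in control and 42.6% with forskolin, and that of Adcy9 13.5% and 32.1%.

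Rat promoters are shown for Adcy9 and Gnas, the members above 5 FPKM with the highest forskolin ratios in that INS-1 experiment, since CREB acts through short DNA elements near start sites. The sequences are the 100 bases before each start site in RefSeq (GRCr8), on the plus strand, 5′ to 3′; capitals mark TGACG or its reverse complement CGTCA, the short form of the cAMP response element.
Adcy9, chr10:11645745-11645844: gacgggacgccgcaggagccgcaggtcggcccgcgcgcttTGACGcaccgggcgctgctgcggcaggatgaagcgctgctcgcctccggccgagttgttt
Gnas start 1, chr3:183489548-183489647: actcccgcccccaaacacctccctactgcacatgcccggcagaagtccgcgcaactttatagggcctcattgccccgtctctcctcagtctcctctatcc
Gnas start 3, chr3:183537239-183537338: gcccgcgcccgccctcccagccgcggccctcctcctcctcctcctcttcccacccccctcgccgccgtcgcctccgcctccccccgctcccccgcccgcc
Adcy9 holds the short element once, 60 bases before its start. Gnas start 1 holds it once, 6 bases after the start and so outside the bases shown, and Gnas starts 2 and 3 hold none in the window of 250 bases before to 50 after. In the same window Adcy7, listed at 0 in the replicated INS-1 libraries, holds it once, 35 bases after its start. Adcy1 and Adcy5 hold none. The measured rat Gnas row is NM_019132 (rn6, chromosome 3, 172420409 to 172434984), which spans fewer bases than separate starts 2 and 3. Which start that row uses was not tested, so the match at start 1 is not tied to it. The short element occurs in 21.2% of the 33469 rat promoter windows of that length. The full element TGACGTCA, which contains the short form, was found on either strand in none of the 7 windows of the 5 members with an entry, and in 1.83% of all windows. Adcy3, Adcy6 and Adcy8 had no window. A match or its absence describes these letters only.

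In hepatocytes no member was called in limma with the columns as named, and the labels of the second pair are in doubt. As the columns are named, 0 of 12593 genes passed (0% called), 32 had an unadjusted p under 0.05, and 0 of the 6 tested members did. The header's command line gives the second pair to the authors' comparison in the opposite order, and names 1 h of forskolin for a directory of that pair where the labels say 2 h. With the columns as named, Sik1, a CREB target, was 1.01 higher (log2) in the library labelled forskolin 1 than in control 1. Sik1 was 1.24 lower in the library labelled forskolin 2 than in that labelled control 2. Pck1 was 2.36 higher and 2.55 lower in the same comparisons, and Nr4a1 0.67 higher and 2.08 lower. The other genes checked for a forskolin response had the same signs. If the header's order is right, each group as labelled mixes treated and control libraries. The absence of calls as labelled then cannot speak of forskolin. The tested hepatocyte members are therefore given for both orders.

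Adcy6 had log2 values of 7.03 and 7.05 in the hepatocyte libraries labelled control 1 and 2, and 6.96 and 7.15 in those labelled forskolin 1 and 2. Gnas had 10.998 and 11.11 against 10.99 and 11.10. Both overlapped in either order, and no difference passed limma in either order. As labelled the log2 difference was 0.016 (SE 0.10) for Adcy6 and -0.010 (SE 0.11) for Gnas, and in the order of the header it was -0.086 (SE 0.087) and -0.00034 (SE 0.10). Adcy7, low at 1.69 to 1.74, was the only tested member whose groups did not overlap as labelled, with a difference of -0.044 (SE 0.024), where 16% of all tested genes did not overlap. In the order of the header its groups overlapped and its difference was 0.0099 (SE 0.029). Adcy1 overlapped as labelled, with a difference of 0.019. In the order of the header its difference was -0.063 and its groups just failed to overlap, as for 25.9% of genes in that order. The forskolin values were then 2.908 and 2.951 and the control values 2.953 and 3.034. Adcy3 overlapped in both orders, at -0.015 and -0.022.

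The overlap of the Adcy9 groups also depended on the column order. Its log2 values were 6.08 in the library labelled control 1, 6.60 in forskolin 1, 6.35 in the library labelled control 2 and 6.10 in that labelled forskolin 2. As labelled the groups overlapped, with a difference of 0.13 (SE 0.18; adjusted p = 0.9999 in limma). In the order of the header Adcy9 was higher in both forskolin libraries without overlap (25.9% of genes do not overlap in that order), with a difference of 0.39 (SE 0.10; adjusted p = 0.862 in limma). With a replicate block in that order limma called Adcy9, in a fit where 395 genes rose and 227 fell. The labels do not say that replicate numbers pair libraries. The authors' deposited table, made in that order, gave Adcy9 0.60 with a p of 0.00763 and an adjusted p of 0.872.

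The comparison of CRTC2KO with wild-type islets asks whether the coactivator sets the level of these genes or their response. Without forskolin Adcy6 stood at 23.3 FPKM in wild-type and 17.4 FPKM in CRTC2KO islets, a log2 ratio of -0.40. Adcy9 stood at 16.1 and 12.8 FPKM, a log2 ratio of -0.31, and Gnas at 908 and 1106 FPKM, a log2 ratio of 0.28. Adcy3 stood at 1.53 and 0.672 FPKM, a log2 ratio of -0.60 (-1.08 with a pseudocount of 0.1, past 2-fold). None of the 4 members with at least 1 FPKM passed a 2-fold ratio, where 6.19% of genes did, and each group had 1 library. Beta cell markers summed to 909746 FPKM in the wild-type and 513412 FPKM in the CRTC2KO control library, and acinar markers to 2791 and 257 FPKM; their part in these values was not tested.

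In the 1 forskolin library of each genotype Adcy6 and Adcy9 were lower and Gnas higher than in the control library, all within 2-fold. In CRTC2KO islets Adcy6 stood at 17.4 FPKM in control and 11.7 FPKM with forskolin, a log2 ratio of -0.53. Adcy9 stood at 12.8 and 10.2 FPKM, a log2 ratio of -0.30, and Gnas at 1106 and 1483 FPKM, a log2 ratio of 0.42. That forskolin library was the shallowest, with an estimated 42.5 reads for Adcy6 and 48.2 for Adcy9. The quartiles of all genes in this comparison were -0.53 and 0.54, so Adcy9 and Gnas lay between them and Adcy6 at the lower one. In the wild-type columns of that table Adcy6 stood at 23.3 and 14.1 FPKM (log2 ratio -0.68), Adcy9 at 16.1 and 10.4 FPKM (-0.59) and Gnas at 908 and 1460 FPKM (0.69). There the quartiles of all genes were -0.45 and 0.43. The difference between genotypes was not tested, for want of replicates. From the control to the forskolin library of CRTC2KO islets the marker sums also differed, for beta cells 513412 and 1004180 FPKM, for acinar cells 257 and 1432 FPKM and for hepatocytes 1991 and 4843 FPKM; their part in these values was not tested. The wild-type columns correlated best with control 2 and forskolin 2 of the replicated islet table (r over 4779 genes of 0.915 and 0.930), so they may be the same libraries and are not a further replicate.

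Of the 5 wild-type members with at least 1 FPKM in either library, 4 were within a 2-fold ratio, which 16.9% of genes passed. The fifth, Adcy8, met that minimum only through the forskolin library in which it was higher. It stood at 0.356 FPKM in control and 2.51 FPKM with forskolin, a log2 ratio of 1.37. These values correspond to an estimated 3.83 and 27.9 reads, and with a pseudocount of 5 the ratio was 0.49, within 2-fold. In CRTC2KO islets Adcy8 stood at 0.0997 and 0.640 FPKM, an estimated 2.83 and 1.91 reads, below the 1 FPKM minimum, so no change was readable at this depth. None of the 3 CRTC2KO members with at least 1 FPKM passed a 2-fold ratio with forskolin, where 24.5% of genes did.

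With an inhibitor beside forskolin, Adcy6, Adcy9 and Adcy1 were lower in INS-1 cells than with forskolin alone. With A-485, Adcy6 and Adcy9 were past 2-fold and lower, as was Adcy8, which met the 1 FPKM minimum only through the library without A-485. These were 3 of 6 members, beside 15% of all genes past 2-fold and 9.57% lower. Adcy6 stood at 30.3 FPKM with forskolin and 13.1 FPKM with A-485 and forskolin, a log2 ratio of -1.15. Adcy9 stood at 22.9 and 8.60 FPKM, a log2 ratio of -1.31, which put it below the untreated 11.6 FPKM. Adcy8 stood at 2.08 and 0.537 FPKM, a log2 ratio of -1.001, from an estimated 37.4 and 13.7 reads, and -0.35 with a pseudocount of 5. Adcy1 was within 2-fold at 14.5 and 7.35 FPKM (-0.90), as was Gnas at 3002 and 2021 FPKM (-0.57). Adcy5 was the exception, at 1.11 FPKM with forskolin and 2.43 FPKM with A-485 added (log2 ratio 0.70, or 1.07 and past 2-fold with a pseudocount of 0.1).

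With JQ1 none of the 6 members was past 2-fold, where 16% of genes were. Adcy6 stood at 18.9 FPKM against 30.3 FPKM with forskolin alone (log2 ratio -0.65), Adcy9 at 13.6 against 22.9 FPKM (-0.71) and Adcy1 at 7.83 against 14.5 FPKM (-0.81). Gnas stood at 3301 against 3002 FPKM (0.14), so the G protein transcript was slightly higher with JQ1 and lower with A-485. The median log2 ratio of the 6 members was -0.41 with JQ1 and -0.95 with A-485, beside -0.051 and 0.0056 over all genes. The quartiles of all genes were -0.45 and 0.36 with JQ1 and -0.40 and 0.39 with A-485. The members' median with JQ1 thus lay between the quartiles. The 2 inhibitor comparisons share the forskolin library, inhibitor doses and targets differ, and no library had the inhibitor without forskolin. Adcy6 kept about the same share of the cyclase sum under the treatments, 42.6% with forskolin, 42.8% with JQ1 and 40.5% with A-485.

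**Figure D3:**
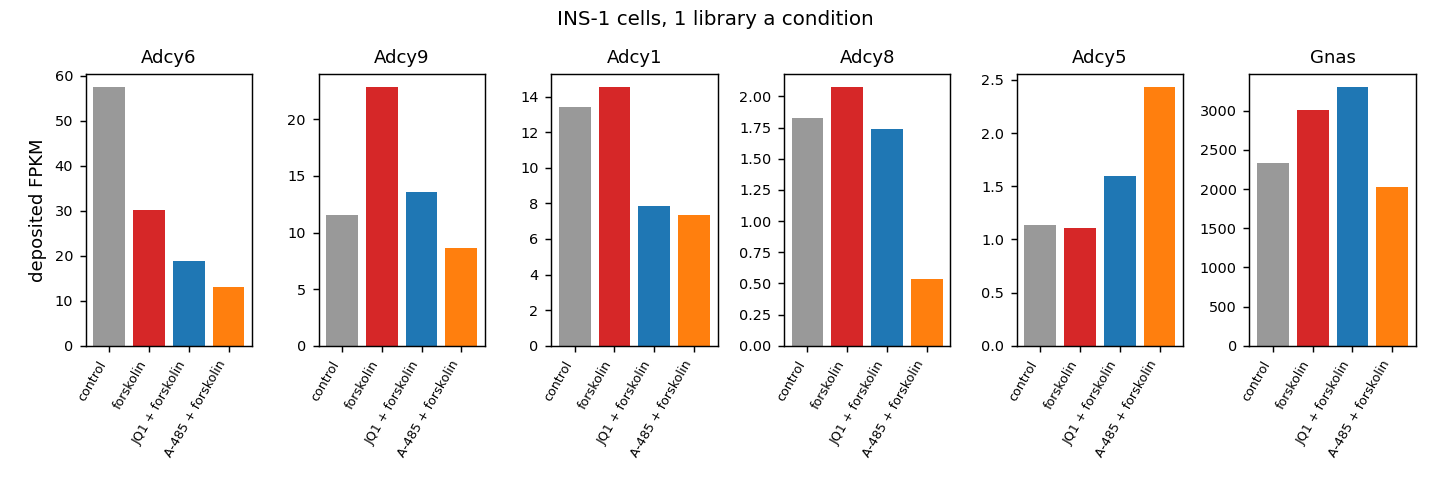
Deposited FPKM of Adcy6, Adcy9, Adcy1, Adcy8, Adcy5 and Gnas in INS-1 cells, 1 bar per library (control, forskolin, JQ1 with forskolin, A-485 with forskolin), each panel with its own axis from 0. Adcy6 steps down from 57.5 to 13.1 FPKM across the 4 libraries, Adcy9 is highest with forskolin alone, and Adcy5 is highest with A-485.

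In AR42J cells Adcy3 and Adcy5 were higher with NeuroD1, and no member reached a 2-fold ratio with forskolin. Adcy3 stood at 6.95 FPKM with GFP and 14.99 FPKM with NeuroD1 (log2 ratio 1.01), and Adcy5 at 0.0568 and 1.45 FPKM (log2 ratio 1.22, from an estimated 0.971 and 21.7 reads). These 2 of 6 members were past 2-fold, but Adcy5 met the 1 FPKM minimum only through the NeuroD1 library; 11.6% of genes were past it and 6.81% were higher. With a pseudocount of 5 both ratios were within 2-fold, at 0.74 and 0.35. Adcy1 stood at 15.8 and 25.1 FPKM (log2 ratio 0.64) and Adcy9 at 8.16 and 11.2 FPKM (0.41). Adcy6 stood at 57.7 and 55.7 FPKM (-0.052) and Gnas at 856 and 794 FPKM (-0.11), so the most abundant cyclase and the G protein were close in the 2 libraries. The same directions stood between the forskolin libraries, where Adcy3 was 7.23 FPKM with GFP and 15.8 FPKM with NeuroD1 and Adcy5 0.119 and 1.34 FPKM. Acinar markers summed to 45060 FPKM with GFP and 22207 FPKM with NeuroD1 in the controls, and their part in these values was not tested.

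Forskolin gave no member a 2-fold ratio in AR42J cells, among 5 with GFP and 6 with NeuroD1, where 1.89% and 2.55% of genes passed it. Adcy6 stood at 57.7 and 54.6 FPKM without and with forskolin in GFP cells (log2 ratio -0.080), and at 55.7 and 47.9 FPKM in NeuroD1 cells (-0.21). Gnas stood at 856 and 830 FPKM (-0.045) and at 794 and 771 FPKM (-0.041). The highest absolute ratio among the tested members was that of Adcy6 with NeuroD1.

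**Figure D4:**
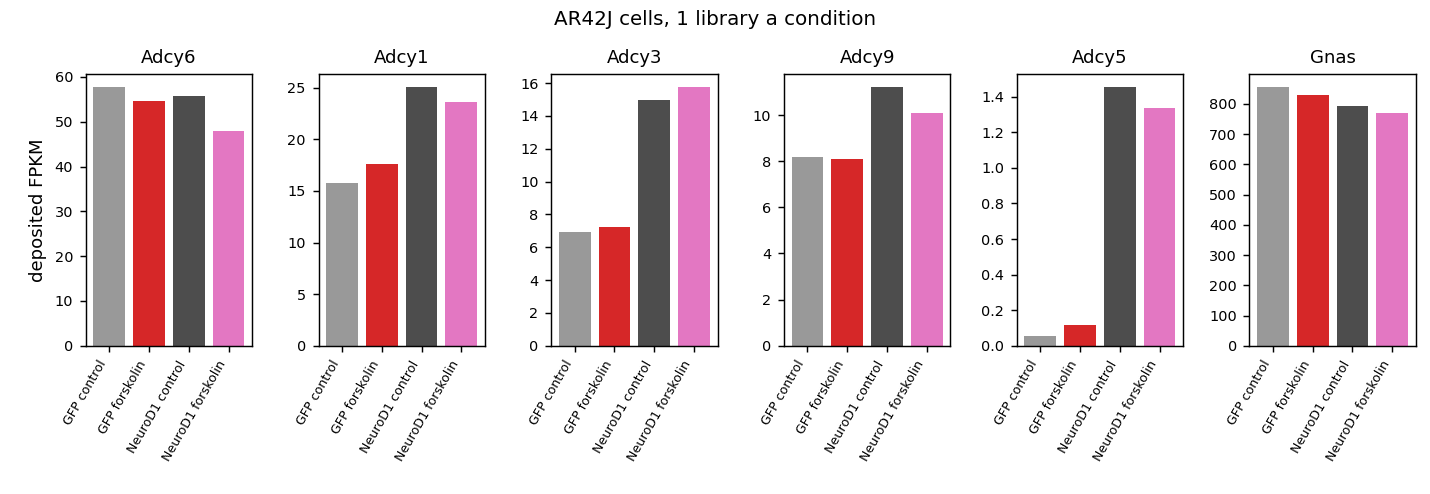
Deposited FPKM of Adcy6, Adcy1, Adcy3, Adcy9, Adcy5 and Gnas in AR42J cells, 1 bar per library (GFP or NeuroD1, control or forskolin), each panel with its own axis from 0. Adcy3, Adcy5 and Adcy1 are higher in both NeuroD1 libraries than in both GFP libraries, and forskolin bars lie close to their controls.

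Gnas stood higher over its effectors in forskolin libraries of islets and INS-1 cells. Gnas over the summed cyclases was 10.6 and 9.37 in control islets and 21.0 and 18.6 with forskolin. In the replicated INS-1 table, whose sum lacks Adcy9, it was 29.9 and 34.0 in controls and 48.3 and 47.5 with forskolin. Adcy9 was 11.6 FPKM in control and 22.9 FPKM with forskolin in the other INS-1 experiment. The size of the difference in the replicated INS-1 table is therefore not comparable with the others. Without division by length the forskolin libraries were at 12.6 and 11.3 in islets and 12.1 and 12.1 in INS-1 cells, above the controls given earlier. In CRTC2KO islets it was 34.3 in control and 60.9 with forskolin, and in the INS-1 inhibitor experiment 27.1, 42.2, 74.9 and 62.4 in control, forskolin, JQ1 and A-485 libraries. It stayed between 7.32 and 9.65 in the 4 AR42J libraries and between 14.9 and 16.5 in the 4 hepatocyte libraries. The ratio joins members already described, so it carries no test.

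**Figure D5:**
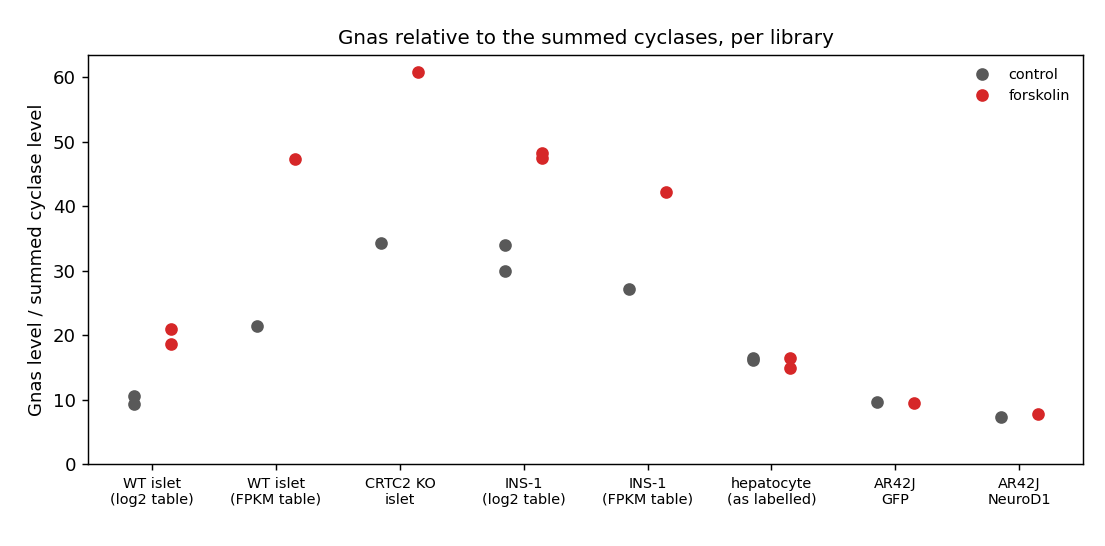
Gnas level divided by the summed level of the 7 cyclases (no Adcy9 row in the replicated INS-1 table), both per transcript length, 1 point per library, grey control and red forskolin. Forskolin points lie above control points in islets and INS-1 cells, and overlap or lie close to them in hepatocytes and AR42J cells.

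Other genes of cAMP production were counted from a list of 38: further cyclases, inhibitory and beta-gamma G protein subunits, calmodulins, Gs-coupled receptors, cyclase-associated proteins and Rgs2, which dampens G protein and cyclase signalling. In islets 3 of 36 tested rose and 0 fell in limma, where 1.96% of all genes were called. The log2 increase was 3.03 for Rgs2 (SE 0.27, adjusted p = 0.00341 in limma), 1.61 for Adora2a, a Gs-coupled adenosine receptor (SE 0.22, adjusted p = 0.0131), and 1.497 for Gnai3, an inhibitory alpha subunit (SE 0.26, adjusted p = 0.0347). In INS-1 cells 1 of 29 rose and 2 fell in limma, where 4.31% of all genes were called: Rgs2 rose by 2.44 (SE 0.14, adjusted p = 3.95e-06), and the adenosine receptor genes Adora2b and Adora2a fell by 0.81 (SE 0.19, adjusted p = 0.0371) and by 0.33 (SE 0.07, adjusted p = 0.0270). The calls of Rgs2 in both sources and of Adora2a in islets held under all alternatives run, and the other 3 were lost under some: Gnai3 had an adjusted p of 0.339 without control 2 and 0.134 without control 1 in islets, Adora2a of 0.123 without control 1 in INS-1 cells and Adora2b of 0.154 without the same library in limma. In hepatocytes as labelled 0 of 26 were called in limma, where 0% of all genes were. Rgs2 there was 0.43 higher in the library labelled forskolin 1 than in control 1 and 0.52 lower in that labelled forskolin 2 than in that labelled control 2. In the order of the header its difference was 0.48 (SE 0.06, adjusted p = 0.186 in limma), and the authors' deposited table, made in that order, called Rgs2 at 0.87 with an adjusted p of 0.00597. Over the tested list the median log2 change was -0.028 for islets, where it was 0.0077 over all genes, and 0.11 for INS-1 cells, where it was 0.0035 over all genes.

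Ratios of the list in the unreplicated libraries are of FPKM, a scale unlike the regularised log2 differences above. With A-485, 6 of 29 were past 2-fold and all were lower, beside 15% of all genes past it and 9.57% lower: Adcyap1r1, the PACAP receptor, stood at 28.3 FPKM with forskolin and 4.94 FPKM with A-485, Gnaz at 41.2 and 12.1 FPKM, Gnao1 at 157 and 60.9 FPKM, and Rgs2 at 159 and 50.6 FPKM; Glp1r and Adora2b were the others. With JQ1, 1 of 29 was higher and 1 lower, beside 16% of all genes past 2-fold. Adcyap1r1 was lower at 6.27 FPKM and Gnai1 higher at 56.4 against 17.2 FPKM. With NeuroD1 in AR42J cells 4 of 24 were higher and 1 lower, beside 11.6% of all genes past 2-fold, led by Rgs2 at 3.85 FPKM with GFP and 52.1 FPKM with NeuroD1. Between wild-type and CRTC2KO control islets 1 of 30 was higher in the knockout and 2 lower, beside 6.19% of all genes past 2-fold. Gng10 stood at 9.84 FPKM in wild-type and 22.8 FPKM in CRTC2KO islets, and Gng5 at 34.8 and 13.7 FPKM. Adcy4, a cyclase outside the 7, was the other, at 2.31 FPKM in wild-type and 0.557 FPKM in CRTC2KO islets.

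Across the 12 libraries of the FPKM tables, the genes with the most similar log2 profile (Pearson r, among 9690 genes) were Selrc1 for Adcy6 (0.973), Fyb for Adcy9 (0.881), Ppp4r2 for Adcy1 (0.994), Pcdha2 for Adcy3 (0.984) and Gpd1 for Gnas (0.982). These libraries fall into 3 cell sources of 2 species and share libraries and transcript models, so a profile mostly ranks the sources, and the values are a description without a test.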

How the data were processed

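Total RNA was made into libraries with a strand-preserving kit, per the labels' protocols. For the 3 replicated tables the authors counted strand-specific exon reads with HOMER on mm10 or rn6 and kept 1 transcript per gene, per the file headers. What they deposited is log2 expression after regularisation, with the authors' own fold change (log2), p-value and adjusted p for forskolin against control; the submitters' processing notes name DESeq2, STAR and TopHat2 2.0.9. The unreplicated tables name no unit; the deposited values behave as FPKM, since low values, once multiplied by transcript length, cluster at the worth of 1 read, from which reads per gene were estimated. Other recorded columns hold transcript lengths, as deposited.

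The log2 values were tested in limma 3.58.1 (R 4.3.3) with a variance trend and Benjamini-Hochberg adjustment over all genes with a group mean of at least 1, at an adjusted p of 0.05; the step was tested on simulated data. The comparisons had been planned for counts, and log2 values needed limma instead. FPKM ratios are log2 after adding 1 FPKM to both values, so low genes show too small a ratio, for genes with at least 1 FPKM in the higher library; a log2 ratio of 1 counts as past the fold, without a test. Promoters came from RefSeq GRCr8 and mouse gene models from an mm10 annotation.

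Named genes were the 8 members, up to 4 partners per table with the largest changes, and genes that check the labels. The members and lists were chosen with earlier results of these data known. Replicate numbers were not treated as pairs, since the labels do not tie them to a shared animal or batch. Alternatives changed the filter, the variance trend, the normalization, the replicate block, the pseudocount, the minimum FPKM and the libraries included.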

Additional observations from a re-analysis of the deposited data

Results flagged for a closer look

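Adcy9 differed in direction between cell sources: with forskolin its log2 difference was -0.57 in wild-type islets, where both treated libraries lay below both controls, and its log2 ratio was 0.92 in the INS-1 inhibitor experiment of 1 library a condition. The difference between the 2 was not tested, since the tables were normalised separately and hold different species and scales.

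The adenosine receptor gene Adora2a also moved oppositely, by 1.61 in islets and -0.33 in INS-1 cells on the log2 scale, with all libraries of each source on 1 side; the difference was not tested.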

How the results depend on the processing

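The direction of Adcy6, Adcy9, Adcy8 and Gnas in islets and of Adcy6 and Gnas in INS-1 cells held under all alternatives run, though quantile normalization lowered Gnas in islets from 0.35 to 0.050. Leaving out 1 library gave -1.09 to -0.60 for Adcy6, -0.68 to -0.46 for Adcy9 and 0.27 to 0.67 for Adcy8 in islets, and -0.49 to -0.30 for Adcy6 in INS-1 cells. The replicate block, where numbers are not known to pair libraries, called 1 more member, Adcy6 in INS-1 cells (adjusted p = 0.0250 in limma); in the hepatocyte header order it called Adcy9 at 0.39 (adjusted p = 1.13e-07). Deviations of same-numbered libraries from their group means had a correlation over genes of -0.13 (islets, 7503 genes), 0.41 (hepatocytes, 8985 genes) and 0.46 (INS-1, 7584 genes). Each source had only 2 pairs. The hepatocyte value used the columns as labelled, so a forskolin effect may enter it if the header's order is right.

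Members near 0 changed sign. Leave-one-out values ran from -0.015 to 0.064 for Adcy1, -0.15 to 0.14 for Adcy3 and -0.072 to 0.030 for Adcy5 in islets. In hepatocytes they ran from -0.044 to 0.082 for Adcy1, -0.045 to 0.015 for Adcy3, -0.079 to 0.11 for Adcy6, -0.12 to 0.39 for Adcy9 and -0.067 to 0.047 for Gnas. In INS-1 cells they ran from -0.059 to 0.020 for Adcy3, -0.064 to 0.32 for Adcy5 and -0.079 to 0.0068 for Adcy8. Quantile normalization gave Adcy3 0.021 in islets and 0.0064 in INS-1 cells. In the header order, with or without the block, hepatocyte Adcy1 was -0.063, Adcy6 -0.086 and Adcy7 0.0099.

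Counts over all genes moved more. In islets 235 rose and 33 fell; the block gave 667 and 120, the crossed block, added after seeing the data, 542 and 163, and 1 library left out 114 to 1879 and 7 to 961, the highest without forskolin 2. Genes that fell numbered 18 without a filter, 56 at a group mean of at least 5 and 12 without the variance trend. In hepatocytes 0 rose and 0 fell; leaving out 1 library gave 0 to 4 that rose (4 without the library labelled forskolin 2), and the header order, also added after seeing the data, gave 3 that rose, or 395 and 227 that fell with the block. In INS-1 cells 318 rose and 128 fell; the block gave 774 and 691, no variance trend 193 and 32, and 1 library left out 197 to 366 and 36 to 147.

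Genes past 2-fold changed with the pseudocount and the minimum. A pseudocount of 5 gave 758 in wild-type islets (2060 at 1), 1016 in CRTC2KO islets (3066), 183 between genotypes (757), 435 for forskolin in INS-1 cells (947), 694 for JQ1 (1559), 721 for A-485 (1472), 33 and 43 for forskolin in AR42J cells with GFP and NeuroD1 (183 and 253) and 465 for NeuroD1 (1150). A pseudocount of 0.1 gave 1396 between genotypes and 365 and 474 in AR42J cells. A minimum of 5 FPKM gave 1900 in CRTC2KO islets, 412 between genotypes and 76 and 107 in AR42J cells.

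The mean share of Adcy6 stayed the highest among the cyclases. Without division by length it was 56.5% and 49.2% in control and forskolin islets, 59.4% in control hepatocytes, and 85.9% and 79.9% in control and forskolin INS-1 cells. In the FPKM table of the same cells it was 54.9% and 45.7% in islets and 66.8% and 42.6% in INS-1 cells. The INS-1 sum there includes Adcy9, which has no row in the replicated INS-1 table. The INS-1 shares are thus over different sets of cyclases. With Adcy2 and Adcy4 in the sum, added after seeing the data, it was 49.0% in forskolin islets and 62.4% in hepatocytes. Other causes of these shifts were not tested. Members under about 1 FPKM rest on few reads.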
